A study of Mus musculus with 18 samples.

Results

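The replication-dependent histone genes of the mouse were described here by class. They were taken as every row of the count table whose gene name begins with Hist1h, Hist2h, Hist3h or Hist4h and whose biotype is protein-coding, which gave 57 genes of the 21995 in the table. H1 held 5 genes, H2A 13, H2B 15, H3 11 and H4 13. In the GENCODE M21 annotation of GRCm38, 48 lie on chromosome 13, 6 on chromosome 3, 2 on chromosome 11 and 1 on chromosome 6.

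The cells were mouse embryonic stem cells (ESCs), pluripotent cells grown from the early embryo. The genotype labels are Oct1 cKO and parental, and each genotype was sampled undifferentiated (day 0), at day 2 and at day 6 of differentiation with 1.5 ug/ml retinoic acid, a vitamin A derivative that takes ESCs out of pluripotency. Oct1 is the transcription factor encoded by Pou2f1. Each of the 6 groups, Oct1 cKO and parental at days 0, 2 and 6, had 3 libraries of total RNA, and the design text says that the cells plated for differentiation on gelatin were depleted. No source used here gives the strain, the allele, the promoter of any recombinase or the number of clones. Nothing in the labels says whether the 3 libraries of a group are separate cultures, so a p-value measures only how much these libraries vary, which could be technical variation.

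Replication-dependent histone genes supply the protein on which newly made DNA is wound, and they are transcribed mainly in S phase. Their messenger RNA usually ends in a short stem-loop, bound by SLBP, instead of a poly(A) tail, and some of these genes are also known to give polyadenylated transcripts in cells that leave the cycle. H2A, H2B, H3 and H4 form the nucleosome core, while H1 binds the linker DNA between nucleosomes. H2B promoters are known for the octamer element, which POU factors such as Oct1 bind.

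The octamer is shown first because it is the element that links Oct1 to this gene family. RefSeq promoter windows of GRCm38.p6, from 250 bases before to 50 bases after a gene's start, were found for 52 of the 57 genes, and ATTTGCAT was searched on both strands. It was present in a window of 6 of 13 H2B genes, always in the forward direction, and of 7 of 13 H2A genes, always in the reverse direction (ATGCAAAT). Hist1h2be is listed with 2 starts, and only 1 of its 2 windows, the one shown, holds the octamer. None of the 5 H1, 9 H3 or 12 H4 windows held it, and 1.97% of the windows of all 27025 genes did. CCAAT was in every H1, H2A, H2B and H3 window, in 25% of H4 windows and in 41.1% of all windows. TATAAA was in 53.8% of H2B windows, 69.2% of H2A windows and 15.7% of all windows. The stretches below are the 6 H2B matches and 2 H2A matches, 5′ to 3′ on the gene's own strand, cut before the gene's start, with the octamer in capitals.
Hist1h2bb (chr13:23746614-23746693, plus strand): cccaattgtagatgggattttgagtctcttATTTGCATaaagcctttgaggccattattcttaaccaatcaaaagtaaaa
Hist1h2be (chr13:23585988-23586067, minus strand): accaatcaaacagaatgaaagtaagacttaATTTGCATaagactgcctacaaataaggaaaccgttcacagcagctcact
Hist1h2bg (chr13:23571311-23571390, plus strand): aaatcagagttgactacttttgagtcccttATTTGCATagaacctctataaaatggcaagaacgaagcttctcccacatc
Hist1h2bk (chr13:22035761-22035820, plus strand): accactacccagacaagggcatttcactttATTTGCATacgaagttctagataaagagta
Hist1h2bm (chr13:21721989-21722043, plus strand): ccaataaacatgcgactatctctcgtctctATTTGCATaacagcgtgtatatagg
Hist2h2bb (chr3:96269622-96269699, plus strand): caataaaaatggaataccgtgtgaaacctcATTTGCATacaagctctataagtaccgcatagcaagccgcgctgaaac
Hist1h2ae (chr13:23571311-23571390, minus strand): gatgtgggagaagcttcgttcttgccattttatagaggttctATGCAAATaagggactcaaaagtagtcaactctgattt
Hist3h2a (chr11:58954524-58954603, plus strand): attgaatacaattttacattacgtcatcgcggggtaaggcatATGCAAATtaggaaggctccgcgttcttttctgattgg
Where both genes have a window, the H2A and H2B gene of 2 divergent pairs share a single octamer between their starts. Hist1h2bc has no window, but the octamer of Hist1h2ac (chr13:23684082-23684089) also lies before the annotated start of Hist1h2bc at 23684199. Hist1h2ae and Hist1h2bg, whose stretches above are the same bases read from opposite strands, start 180 bases apart. Hist1h2ah and Hist1h2bk start 178 bases apart. A match is a description of the letters in these windows and was not tied to binding.

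The counts behind these genes were low. Libraries held 13694126 to 19296966 counts, of which 456 to 3096 fell on the 57 genes, and 50 of the 57 averaged under 30 counts per library. Levels are given as CPM, counts scaled to TMM-adjusted library size, where 1 count is 0.0452 to 0.0784 CPM, and they are not divided by gene length. The filter on low counts passed 43 of the 57, and 15 of these passed through a single group, 14 of them through parental day 2. Near-identical copies are a further limit, since a median of 49.3% of a gene's 50-base windows also occurs in another gene and 26 genes have over 50% of theirs shared. Class sums are therefore given beside single genes. Pou2f1 itself had 87.2, 88.2 and 62.4 CPM in Oct1 cKO cells at day 0, against 135, 124 and 127 CPM in parental cells, and it was also lower at day 2 (59.5, 60.8 and 58.8 against 105, 97.9 and 106 CPM) and day 6 (36.0, 45.3 and 44.5 against 64.9, 61.1 and 64.2 CPM). Every Oct1 cKO library was below every parental library of its day, with log2 differences of -0.70 ± 0.10 at day 0, -0.78 ± 0.10 at day 2 and -0.60 ± 0.11 at day 6 (adjusted p = 1.36e-05, 2.81e-06 and 8.6e-05). Which part of the gene is deleted is not stated, so counts over the whole gene check the labels only in part.

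Summed over all 57 genes, histone transcripts were lower in Oct1 cKO cells at each day. The sums were 37.7 ± 2.97 CPM in Oct1 cKO cells and 56.0 ± 5.11 CPM in parental cells at day 0, 114 ± 5.74 and 137 ± 5.68 CPM at day 2, and 46.2 ± 3.35 and 111 ± 5.43 CPM at day 6 (SD, n = 3 each). The groups did not overlap at any day. As a log2 ratio of Oct1 cKO to parental, the difference came to -0.57, -0.26 and -1.27 on days 0, 2 and 6. No test was made on a sum, because the genes were chosen with earlier results known. In bulk RNA, fewer cells making a transcript and less of it per cell cannot be told apart.

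By class, the summed difference was widest at day 6, in classes with and without the octamer, and single genes moved these values. At day 6 the H2A sum was 2.39 ± 0.357 CPM in Oct1 cKO cells against 10.8 ± 0.932 CPM in parental cells, a log2 ratio of -2.18. H3 was 1.09 ± 0.112 against 3.82 ± 0.333 CPM (log2 -1.81). H2B was 12.9 ± 2.06 against 38.6 ± 2.55 CPM (log2 -1.58). All 3 sums were separated without overlap. H1 was 23.3 ± 1.17 against 47.6 ± 1.79 CPM (log2 -1.03), and H4 was 6.58 ± 0.804 against 10.4 ± 0.372 CPM (log2 -0.66). H4 had the smallest class difference at that day, still without overlap. For H4 the order of the days rested on its leading gene, Hist1h4i, since the H4 log2 ratios without it came to -0.69, -0.91 and -0.44 on days 0, 2 and 6. Without Hist1h1c the H1 ratio at day 6 was -2.55, and without Hist1h2bc that of H2B was -2.84.

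At days 0 and 2 the class sums differed less. At day 0 H2B was 9.0 ± 1.75 CPM in Oct1 cKO cells against 14.1 ± 0.611 CPM in parental cells (log2 -0.64), and H2A was 2.81 ± 0.641 against 5.38 ± 0.391 CPM (log2 -0.94). H1 was 12.1 ± 1.1 against 17.7 ± 2.20 CPM and H4 9.66 ± 0.724 against 13.1 ± 1.60 CPM. These 4 classes did not overlap at day 0, whereas H3 did, at 4.12 ± 0.444 against 5.81 ± 1.73 CPM. At day 2 H2B was 36.2 ± 2.28 against 44.6 ± 1.70 CPM, H2A 12.2 ± 0.298 against 15.8 ± 0.768 CPM and H4 34.7 ± 2.35 against 44.6 ± 1.84 CPM. H3, at 12.2 ± 0.0527 against 13.5 ± 1.39 CPM, was also below without overlap. H1 overlapped at day 2, at 18.9 ± 3.15 against 18.5 ± 1.54 CPM. The plot of class sums shows each library.

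**Figure D1:**
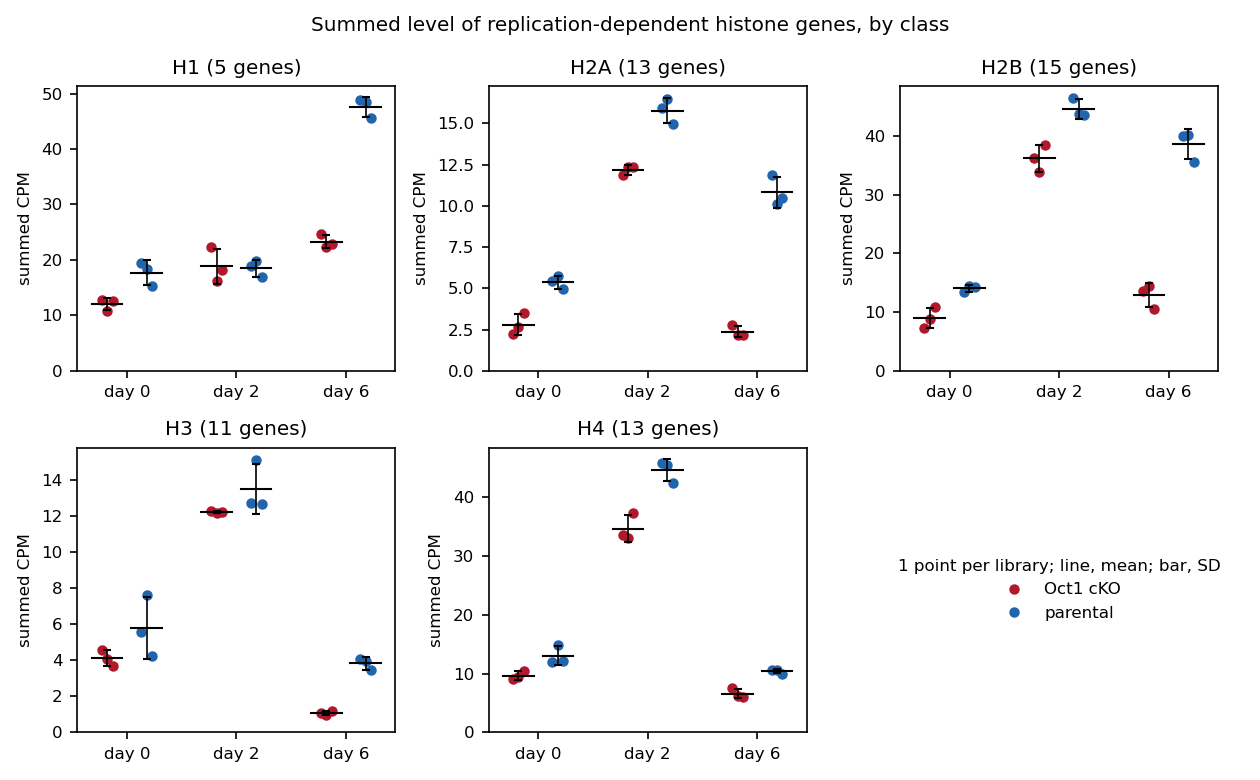
Summed CPM (vertical axis, from 0) of the replication-dependent histone genes of each class at days 0, 2 and 6, with 1 point per library, the mean as a line and the SD as a bar (n = 3); Oct1 cKO is red and stands left of parental in blue. Day 6 shows the widest gaps, such as 2.39 against 10.8 CPM for H2A, while H1 overlaps at day 2.

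Gene by gene, edgeR's quasi-likelihood test with Benjamini-Hochberg adjustment over 18352 genes called no histone gene higher and 11 lower in Oct1 cKO cells at day 0, where 26.4% of all genes tested were called higher and 27% lower. At day 0, 13 of the 43 histone genes tested had an unadjusted p under 0.05, and DESeq2 also called none higher. At day 2 edgeR called 3 higher and 25 lower, beside 33.7% and 33.6% of all genes. At day 6 edgeR called 1 higher and 27 lower, beside 36.7% and 37.8%. Without the filter, so that all 57 genes were tested, the calls were 0 higher and 12 lower at day 0, 3 and 27 at day 2, and 1 and 27 at day 6, beside 21.9%, 30.7% and 32.4% of all genes called lower. Of the 25 genes called lower at day 2, 11 had passed the filter through parental day 2 alone, the group where they were high, and 1 reached the minimum count in all libraries of no group, which leaves 13. These 13 are not free of such selection, since Hist1h1d, Hist1h2be, Hist1h2bh and Hist1h4j passed through parental days 2 and 6 only. Hist1h2ab passed through parental day 0 only and was also called lower at that day. Lower calls at day 6 include Hist1h1d, Hist1h2be, Hist1h2bg, Hist1h2bh and Hist1h4j, all passed through parental days 2 and 6 only. The group mean of Oct1 cKO was the lower for 51 of the 57 genes at day 0, 48 at day 2 and 46 at day 6, beside 48.8%, 51.4% and 49% of all genes. Groups stood apart with Oct1 cKO lower for 17, 28 and 31 of the 57, beside 25.5%, 32.7% and 35.4% of all genes. They stood apart with Oct1 cKO higher for 0, 2 and 2 genes, beside 25.4%, 31.3% and 33.7%. The count at day 0 rested partly on single libraries, with 5 genes lower without library 2 of parental day 0 and 6 without library 2 of Oct1 cKO day 0. Unscaled library sizes moved the split of all genes to 4263 higher and 8187 lower at day 2 and 5241 and 8414 at day 6, in place of 6187 and 6172 and of 6740 and 6940, with 2 and 30 histone genes called at day 2 and 1 and 30 at day 6. Fitting the 6 libraries of a comparison alone gave 7 lower calls at day 0 and 14 at day 6.

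**Figure D2:**
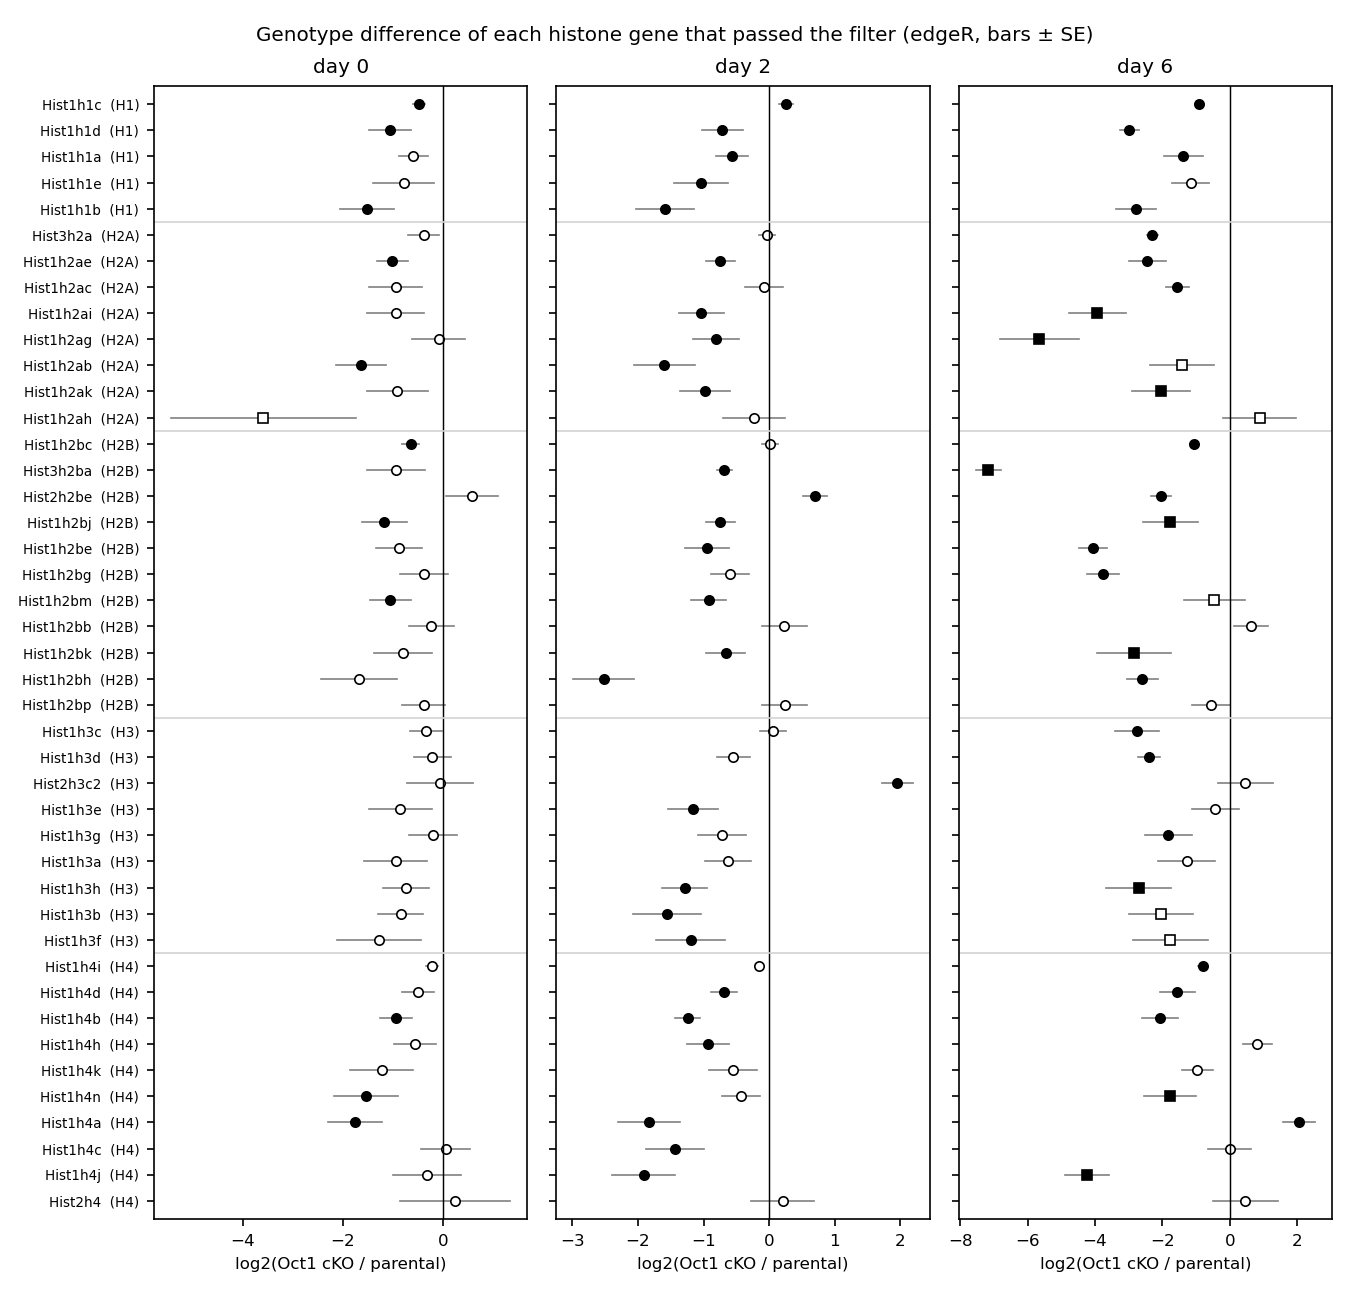
Log2 ratio of Oct1 cKO to parental (horizontal axis, a separate scale per day) for the 43 genes that passed the filter, ordered by class and then by mean CPM, with the SE as a bar. Filled marks are called at an adjusted p under 0.05 and squares mark a gene with 3 counts or fewer in a group, whose fitted value depends on the prior count; filled marks lie left of 0 except 3 at day 2 and 1 at day 6.

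Among the 15 H2B genes, 11 of them tested, 3 were called lower at day 0, 6 at day 2 and 8 at day 6, and 1 was called higher, at day 2. Beside these 3, 6 and 8 of the 11 tested, 27%, 33.6% and 37.8% of all genes tested were called lower, so that the first is near the share of all genes. Over all 15 genes the lower calls are 20%, 40% and 53.3%, with untested genes taken as not called. Hist1h2be, Hist1h2bg and Hist1h2bh had passed the filter through parental days 2 and 6 only, the groups where they were high. All were called lower at day 6, and Hist1h2be and Hist1h2bh also at day 2. Hist1h2bc had 3.38, 5.73 and 6.15 CPM in Oct1 cKO cells at day 0, against 8.44, 6.86 and 8.99 CPM in parental cells. By day 2 it had 13.2, 11.6 and 12.3 against 13.1, 11.8 and 11.8 CPM, and at day 6 11.4, 12 and 8.45 against 23.9, 23.6 and 19.5 CPM. The groups stood apart at days 0 and 6 and overlapped at day 2. The log2 difference (± SE) was -0.65 ± 0.17 with an edgeR adjusted p = 0.00204 at day 0. On day 2 it was 0.01 ± 0.13 with an adjusted p = 0.935. The difference was widest on day 6, when it was -1.07 ± 0.12 (adjusted p = 3.65e-09). Hist1h2bc held 56.5% of the H2B sum of Oct1 cKO cells at day 0 and 57.5% of that of parental cells.

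Hist3h2ba, an H2B gene on chromosome 11, was nearly uncounted in Oct1 cKO cells at day 6. It had 0, 0 and 0.127 CPM in Oct1 cKO cells at day 6, which is 2 counts over the 3 libraries, against 6.77, 7.32 and 6.27 CPM in parental cells, which is 397 counts. The ratio of the library-scaled counts was 0.00592, with an exact 95% interval of 0.000714 to 0.0215 that covers counting error only. At day 2 it had 10.5, 8.05 and 11 CPM in Oct1 cKO cells against 16, 15.6 and 15.7 CPM in parental cells, a log2 difference of -0.69 ± 0.11 (adjusted p = 1.65e-06), without overlap. At day 0 the values overlapped, at 0.301, 0.0784 and 0.251 against 0.312, 0.675 and 0.248 CPM. It held 27.2% of the H2B sum in Oct1 cKO cells at day 2 and 35.3% in parental cells, and without it the H2B log2 ratio was -0.13 at day 2 and -1.31 at day 6. The median log2 difference of the 974 chromosome 11 genes at 5 CPM or more was also negative, at -0.38, -0.37 and -0.39 on days 0, 2 and 6. This median was about the same at each day, whereas the difference of Hist3h2ba widened from day 2 to day 6. The part that the chromosome has in the result was not tested.

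Hist2h2be, on chromosome 3, was higher in Oct1 cKO cells at day 2 and lower at day 6. Its day 2 levels were 4.5, 6.01 and 6.82 CPM in Oct1 cKO cells against 3.53, 4.29 and 2.84 CPM in parental cells, a log2 difference of 0.70 ± 0.19 (adjusted p = 0.00132). At day 6 it had 0.476, 0.753 and 0.890 CPM against 2.54, 2.85 and 3.45 CPM, a log2 difference of -2.05 ± 0.30 (adjusted p = 1.59e-07). Neither day showed an overlap, while day 0 did, at 0.301, 0.235 and 1.07 against 0.500, 0.225 and 0.434 CPM.

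Among the H2B genes with an octamer, Hist1h2be and Hist1h2bg were lower in Oct1 cKO cells at day 6 with well-counted parental levels. Hist1h2be had 0.0595, 0.232 and 0.0635 CPM in Oct1 cKO cells at day 6 against 1.94, 2.13 and 2.30 CPM in parental cells, a log2 difference of -4.06 ± 0.41 (adjusted p = 2.36e-11). Its annotated exons overlap those of Hist1h1e and Gm11398, so reads could be shared. Hist1h2bg had 0.119, 0.0579 and 0.127 CPM against 1.54, 1.50 and 1.31 CPM, a log2 difference of -3.76 ± 0.48 (adjusted p = 5.04e-09). Hist1h2bh, in whose window no octamer was found, had 0.357, 0.116 and 0.0635 CPM against 1.09, 1.09 and 1.20 CPM (log2 -2.59 ± 0.46, adjusted p = 4.42e-06). All 3 genes were near the level of a few counts in Oct1 cKO cells at day 6 and above it in every parental library. Earlier, Hist1h2be had 0.602, 0.314 and 0.126 CPM in Oct1 cKO cells against 0.500, 0.788 and 0.558 CPM in parental cells at day 0 (log2 -0.88 ± 0.46, adjusted p = 0.106). Its day 2 levels were 0.507, 0.467 and 0.735 against 0.995, 1.26 and 1.05 CPM (log2 -0.95 ± 0.33, adjusted p = 0.0123, and 0.0594 without library 2 of Oct1 cKO day 2). Hist1h2bg was called at neither earlier day, with log2 differences of -0.39 ± 0.48 at day 0 and -0.59 ± 0.29 at day 2 (adjusted p = 0.521 and 0.0709), although its day 2 groups, at 1.01, 1.17 and 0.602 against 1.54, 1.51 and 1.20 CPM, stood apart by a narrow margin. At day 2 Hist1h2bh was also lower in Oct1 cKO cells, with 0.0634, 0.408 and 0.0669 CPM against 1.04, 1.11 and 1.20 CPM (log2 -2.52 ± 0.46, adjusted p = 9.55e-06).

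Hist1h2bj, another H2B gene, had 0.376, 0.235 and 0.377 CPM in Oct1 cKO cells at day 0 against 0.688, 0.900 and 0.682 CPM in parental cells, and 1.39, 1.63 and 2.21 against 3.53, 2.42 and 2.74 CPM at day 2, apart at both days. In Oct1 cKO cells it was lower than in parental cells by 1.17 ± 0.45 on the log2 scale at day 0 (edgeR adjusted p = 0.027) and by 0.74 ± 0.22 at day 2 (adjusted p = 0.00376). At day 6 its 3 counts in Oct1 cKO cells against 13 in parental cells gave a ratio of 0.271 (interval 0.0496 to 0.987), with overlapping groups. Hist1h2bm was lower in Oct1 cKO cells by 1.06 ± 0.40 at day 0 (adjusted p = 0.0259) and by 0.92 ± 0.27 at day 2 (adjusted p = 0.0027). Hist1h2bk was lower by 0.66 ± 0.29 at day 2 (adjusted p = 0.0452). At day 6 Hist1h2bk had 1 count in Oct1 cKO cells against 11 in parental cells, a ratio of 0.107 (interval 0.00248 to 0.735). Its partner across the shared octamer, Hist1h2ah, was called in no genotype comparison. Hist1h2bp was called at no day, with log2 differences of -0.39 ± 0.43, 0.24 ± 0.34 and -0.55 ± 0.56 on days 0, 2 and 6. Hist1h2bb, with an octamer, was not called either, at -0.24 ± 0.45, 0.23 ± 0.34 and 0.63 ± 0.50, and stood at 0.655, 0.695 and 0.0635 CPM in Oct1 cKO cells at day 6 against 0.348, 0.311 and 0.261 CPM in parental cells. The day 0 call of Hist1h2bj was lost without library 2 of parental day 0 (adjusted p = 0.102) or library 2 of Oct1 cKO day 0 (adjusted p = 0.0911). That of Hist1h2bm was lost without library 2 of parental day 0 (adjusted p = 0.141) or library 1 or 2 of Oct1 cKO day 0 (adjusted p = 0.0896 and 0.0529). The day 2 call of Hist1h2bk was lost without any of 7 libraries, with adjusted p up to 0.161 (library 3 of parental day 2), and its day 6 call without any of 3. The day 6 call of Hist1h2bj was lost without any of 8 libraries, with adjusted p up to 0.359 (library 1 of parental day 6), and also with DESeq2 size factors (0.0556) and with no filter (0.0578). DESeq2 did not make the calls of Hist1h2bj at day 6 (adjusted p = 0.075), Hist1h2bk at day 2 (0.0876) or Hist1h2bm at day 0 (0.0649).

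H2B genes with and without the octamer were both among those called lower. Of the 6 with it, 5 passed the filter, and 1 was called lower at day 0, 3 at day 2 and 3 at day 6. Of the 7 with a window but no match, 4 passed, and 1, 3 and 3 were called lower, beside 27%, 33.6% and 37.8% of all genes. Hist1h2be and Hist1h2bg with the octamer and Hist1h2bh without it had passed through parental days 2 and 6 only. The summed levels of these sets at day 6 were 0.812 ± 0.373 CPM in Oct1 cKO cells against 4.19 ± 0.0818 CPM in parental cells with the octamer, and 0.745 ± 0.0708 against 9.11 ± 0.473 CPM without it. As log2 ratios these are -2.37 and -3.61. Hist3h2ba, on chromosome 11, holds most of the second sum, and without it the genes with no match summed to 0.703 ± 0.0103 against 2.32 ± 0.206 CPM, a log2 ratio of -1.72, which turns the order of the sets round. All 3 sums were lower in Oct1 cKO cells without overlap, and no test was made of the difference between the sets. Hist1h2bc and Hist2h2be have no promoter window and are in none of these sums, which therefore cover only part of H2B. Hist1h2bc alone averaged 10.6 CPM in Oct1 cKO cells and 22.3 CPM in parental cells at day 6. The octamer found in the window of Hist1h2ac lies before its start.

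In H2A, 8 of 13 genes were tested, and 2 were called lower at day 0, 5 at day 2 and 6 at day 6, and none higher. Beside them 27%, 33.6% and 37.8% of all genes tested were called lower. Over all 13 genes these calls are 15.4%, 38.5% and 46.2%, with untested genes taken as not called. Of these, 3 of the 5 at day 2 and 3 of the 6 at day 6 had passed the filter through parental day 2 alone. Hist3h2a, the neighbour of Hist3h2ba on chromosome 11, had 0.526, 0.941 and 0.816 CPM in Oct1 cKO cells at day 0 against 1.0, 1.01 and 0.992 CPM in parental cells. At day 2 its groups overlapped, with 6.02, 7.41 and 6.35 against 7.10, 6.62 and 6.48 CPM. At day 6 it had 1.85, 1.27 and 1.33 CPM against 7.96, 6.70 and 7.31 CPM, a log2 difference of -2.30 ± 0.16 (adjusted p = 1.09e-15), with the groups far apart. Its annotated exons overlap those of Trim17 and Gm44313.

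Hist1h2ae, which shares its octamer with Hist1h2bg, was lower at all 3 days. It had 0.451, 0.706 and 0.878 CPM in Oct1 cKO cells at day 0 against 1.12, 1.74 and 1.30 CPM in parental cells (log2 -1.01 ± 0.31, adjusted p = 0.00593, and 0.0573 without library 2 of parental day 0). Day 2 gave 1.65, 1.57 and 1.34 against 2.26, 2.32 and 3.09 CPM (log2 -0.74 ± 0.22, adjusted p = 0.00311), and at day 6 0.119, 0.116 and 0.0635 against 0.697, 0.415 and 0.627 CPM (log2 -2.45 ± 0.54, adjusted p = 0.000118). The groups stood apart at each day. Hist1h2ac overlapped at day 2, with 1.01, 1.11 and 0.802 CPM in Oct1 cKO cells against 0.950, 1.26 and 0.897 CPM in parental cells. It was called at day 6 alone, with 0.357, 0.463 and 0.381 CPM against 1.19, 1.30 and 1.1 CPM (log2 -1.56 ± 0.34, adjusted p = 9.12e-05). Hist1h2ag had no counts in Oct1 cKO cells at day 6 and 21 in parental cells, which is at least 1.97-fold lower against a floor of 3 counts per library.

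The H1 genes, which encode linker histones, gave 3 of 5 called lower at day 0, 4 at day 2 and 4 at day 6, beside 27%, 33.6% and 37.8% of all genes. Among them were 1, 2 and 1 that had passed the filter through parental day 2 alone. Hist1h1c had 11.1, 9.10 and 10.7 CPM in Oct1 cKO cells at day 0 against 16.1, 14.2 and 12.9 CPM in parental cells (log2 -0.48 ± 0.12, adjusted p = 0.000935). At day 6 it had 23.6, 21.5 and 21.8 CPM against 43.1, 42.8 and 39.6 CPM (log2 -0.91 ± 0.09, adjusted p = 1.34e-11). Both days stood apart. It was called higher at day 2, with 19.2, 13.1 and 15.9 CPM against 14.6, 13.5 and 11.9 CPM (log2 0.26 ± 0.10, adjusted p = 0.0291), but the groups overlapped, and without library 1 of Oct1 cKO day 2 the difference was 0.10 (adjusted p = 0.418). The call was also lost without library 3 of Oct1 cKO day 2 or library 2 or 3 of parental day 2 (adjusted p = 0.0655, 0.0665 and 0.199), and DESeq2 did not make it (adjusted p = 0.0769). Hist1h1c held 85.0% of the H1 sum in Oct1 cKO cells at day 2 and 72.0% in parental cells, and without it the H1 log2 ratio at day 2 was -0.87.

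Hist1h1d had 0.536, 0.521 and 0.508 CPM in Oct1 cKO cells at day 6, against 3.88, 4.52 and 4.13 CPM in parental cells, a log2 difference of -2.98 ± 0.28 (adjusted p = 2.65e-12). The Oct1 cKO libraries were close to each other and far below the parental ones. At day 0 its groups overlapped, at 0.226, 0.157 and 0.816 against 1.06, 1.07 and 0.558 CPM (log2 -1.06 ± 0.42, adjusted p = 0.0332), and that call was lost without library 1 or 2 of either genotype at day 0 (adjusted p = 0.105 to 0.174). At day 2 the levels were 0.570, 1.17 and 0.802 against 1.22, 1.72 and 1.30 CPM (log2 -0.71 ± 0.31, adjusted p = 0.039), apart by a narrow margin, with the call lost without library 1 or 3 of Oct1 cKO day 2 or library 2 of parental day 2 (adjusted p = 0.192, 0.0886 and 0.146). Hist1h1a had 0.0595, 0.174 and 0.127 CPM in Oct1 cKO cells against 0.398, 0.260 and 0.313 CPM in parental cells at day 6 (log2 -1.38 ± 0.57, adjusted p = 0.0317). That call was lost without library 1 or 3 of either genotype at day 6, with adjusted p of 0.0533 to 0.129, and with DESeq2 (0.071). Its day 0 levels were 0.677, 1.1 and 0.816 CPM against 1.25, 1.41 and 1.24 CPM, and its day 2 levels 1.27, 1.40 and 0.869 against 1.54, 1.82 and 1.94 CPM. Both days stood apart, with a call at day 2 (log2 -0.56 ± 0.24, adjusted p = 0.0369) and none at day 0 (log2 -0.60 ± 0.29, adjusted p = 0.0841). The day 2 call was lost without library 1 or 3 of Oct1 cKO day 2 or library 2 or 3 of parental day 2 (adjusted p = 0.0522, 0.174, 0.0672 and 0.101) and with DESeq2 (0.077).

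In H3, 9 of 11 genes were tested. None was called lower at day 0, 4 at day 2 and 4 at day 6, beside 27%, 33.6% and 37.8% of all genes tested. The 4 at day 2 were Hist1h3b, Hist1h3e and Hist1h3h, which had passed the filter through parental day 2 alone, and Hist1h3f, which reached the minimum count in all libraries of no group, so this count is no support for a lower H3 level. At day 6, 2 of the 4 had passed through parental day 2 alone. Hist2h3c2 had the largest difference of the 3 genes called higher at day 2. It had 4.06, 3.09 and 3.41 CPM in Oct1 cKO cells at day 2 against 1.13, 0.808 and 0.747 CPM in parental cells, a log2 difference of 1.95 ± 0.24 (adjusted p = 3.2e-09), and its lowest Oct1 cKO library was above its highest parental one. At days 0 and 6 it was at 0.251 CPM or less in all 12 libraries. Of its 50-base windows, 63.5% occur in another gene. Hist1h3c had 0.238, 0.0579 and 0 CPM in Oct1 cKO cells at day 6 against 0.896, 0.779 and 0.470 CPM in parental cells (log2 -2.75 ± 0.65, adjusted p = 0.000278). Hist1h3d had 0.298, 0.232 and 0.318 CPM against 1.74, 1.35 and 1.46 CPM at that day (log2 -2.40 ± 0.33, adjusted p = 3.92e-08). Both were apart at day 6 and were not called at days 0 and 2. At day 2, when Hist1h3c was highest in both genotypes, its levels of 3.55, 5.19 and 3.88 CPM in Oct1 cKO cells overlapped those of 4.43, 3.99 and 3.79 CPM in parental cells. Hist1h3d had 1.08, 0.933 and 0.936 CPM against 1.45, 1.57 and 1.30 CPM at that day (log2 -0.55 ± 0.26, adjusted p = 0.0577), apart but short of the threshold.

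In H4, 10 of 13 genes were tested, and 3 were called lower at day 0, 6 at day 2 and 5 at day 6, with 1 higher at day 6. Beside them 27%, 33.6% and 37.8% of all genes tested were called lower. Over all 13 genes the lower calls are 23.1%, 46.2% and 38.5%, with untested genes taken as not called. Of these calls, 1 of the 3 at day 0 and 3 of the 6 at day 2 had passed the filter through parental day 2 alone. Hist1h4i, which held 66.5% of the H4 sum over all libraries, had 5.71, 5.49 and 6.59 CPM in Oct1 cKO cells at day 0 against 7.19, 6.58 and 7.32 CPM in parental cells. On day 2 it had 26.5, 25.4 and 27.5 CPM against 31.5, 29.3 and 27.0 CPM, and at day 6 4.29, 3.59 and 3.50 CPM against 6.37, 6.90 and 6.63 CPM. It was called at day 6 (log2 -0.80 ± 0.13, adjusted p = 5.36e-07), where the groups stood apart. At day 2 it was not called (log2 -0.15, adjusted p = 0.0717), but 9 of 23 alternatives did call it lower, with adjusted p down to 8.55e-05 for unscaled library sizes. Hist1h4b was lower at all 3 days. It had 1.46, 1.63 and 1.67 CPM at day 2 against 3.44, 4.04 and 3.84 CPM (log2 -1.24 ± 0.19, adjusted p = 2.94e-07), with log2 differences of -0.94 ± 0.32 at day 0 and -2.07 ± 0.53 at day 6. Its day 0 call was lost without library 2 of parental day 0 (adjusted p = 0.0765) or library 3 of Oct1 cKO day 0 (adjusted p = 0.0611). Hist1h4d had 1.84, 2.10 and 3.01 CPM against 4.07, 3.64 and 3.44 CPM at day 2, and 0.0595, 0.174 and 0.318 against 0.398, 0.623 and 0.627 CPM at day 6, apart at both. It was called lower in Oct1 cKO cells at day 2 (log2 -0.69 ± 0.20, adjusted p = 0.0027) and day 6 (log2 -1.56 ± 0.52, adjusted p = 0.00707, and 0.053 without library 1 of Oct1 cKO day 6). The gene called higher at day 6 was Hist1h4a, named after its values were seen, with 1.19, 0.463 and 0.763 CPM against 0.249, 0.260 and 0.0522 CPM, while at days 0 and 2 it was among the genes called lower.

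**Figure D3:**
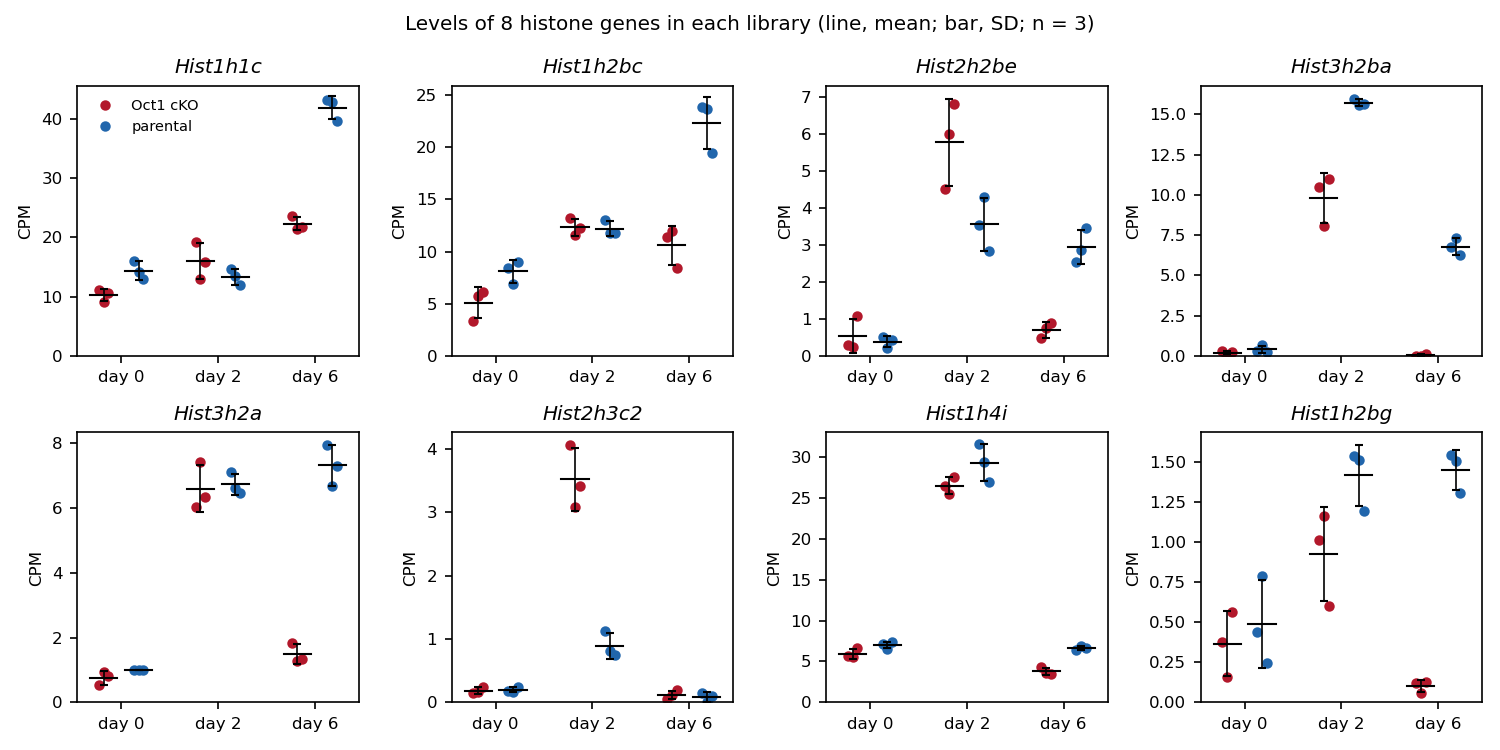
CPM (vertical axis, from 0, a separate scale per gene) of 8 histone genes in each library at days 0, 2 and 6, with Oct1 cKO in red left of parental in blue, the mean as a line and the SD as a bar (n = 3). Hist3h2ba is near 0 in Oct1 cKO at day 6 against 6.27 to 7.32 CPM in parental, and Hist2h3c2 is at 3.09 to 4.06 CPM in Oct1 cKO at day 2 against 0.747 to 1.13 CPM in parental.

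Histone transcripts were higher at day 2 of retinoic acid than at day 0 in both genotypes. In Oct1 cKO cells 26 of the 57 genes were called higher at day 2 than at day 0 and none lower (41% and 35.5% of all genes tested), with 17 of the 43 tested left uncalled. The no-filter fit called 27 higher and 1 lower. In parental cells 35 were called higher and none lower (43.2% and 37.7% of all genes), and the no-filter fit called 38 and 0. Among the 43 tested, 14 had passed the filter through parental day 2 alone, the group where they were high. Unscaled library sizes moved the parental split of all genes to 10130 higher and 4589 lower, in place of 7924 and 6913, with 39 histone genes higher and none lower. DESeq2 called none lower in either genotype, and the 27 genes in Oct1 cKO cells and 35 in parental cells with an unadjusted p under 0.05 were all higher. The group mean was highest at day 2 for 49 of the 57 genes in Oct1 cKO cells and for 42 in parental cells, beside 32.4% and 27.7% of all genes. The H2B sum at day 2 was 4.02-fold that of day 0 in Oct1 cKO cells and 3.17-fold in parental cells. H4 was 3.59-fold and 3.42-fold higher, H2A 4.34-fold and 2.93-fold, and H3 2.97-fold and 2.32-fold, all without overlap. H1 was 1.57-fold higher in Oct1 cKO cells and 1.05-fold, with overlap, in parental cells. Among single genes Hist3h2ba rose by 5.46 ± 0.28 on the log2 scale in Oct1 cKO cells and by 5.2 ± 0.21 in parental cells, and Hist1h4i by 2.15 ± 0.10 and 2.06 ± 0.09. Both rose in both genotypes without overlap between the days.

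Many of these genes were lower again at day 6. In Oct1 cKO cells 33 genes were called lower than at day 2 and 2 higher (41.6% and 39.6% of all genes), and in parental cells 30 lower and 4 higher (36.9% and 42.6%). These contrasts were added after the data were seen. Of the 43 genes tested, 14 had passed the filter through parental day 2 alone, the group where they were high. With no filter, the calls were 40 lower and 2 higher in Oct1 cKO cells, beside 37.7% and 35.3% of all genes. In parental cells they were then 38 lower and 4 higher, beside 37% and 35.8%. The H3 sum at day 6 was 11.3-fold below that of day 2 in Oct1 cKO cells and 3.53-fold below in parental cells, and H4 was 5.27-fold and 4.29-fold below. H2A was 5.11-fold below in Oct1 cKO cells and 1.46-fold in parental cells, and H2B 2.81-fold and 1.16-fold. The H1 sum was 2.57-fold above day 2 in parental cells and overlapped in Oct1 cKO cells. Hist1h1c held 87.9% of that parental day 6 sum. The other 4 H1 genes summed to 0.987 ± 0.108 CPM at day 6 and 2.84 ± 0.55 CPM at day 2 in Oct1 cKO cells, without overlap, and to 5.78 ± 0.156 and 5.18 ± 1.03 CPM in parental cells, with overlap. Against day 0, Oct1 cKO cells had 5 genes higher and 19 lower (41.4% and 40.4% of all genes), and parental cells had 12 higher and 15 lower (45.3% and 40.2%).

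The difference between the genotypes' time courses was tested as an interaction. For day 2 against day 0 it called 3 genes higher in Oct1 cKO relative to parental and none lower (30.1% and 26.9% of all genes), with 4 genes at an unadjusted p under 0.05, of which 1 was lower, and DESeq2 called none lower. The DESeq2 size factors, the no-filter fit and unscaled library sizes each called 1 lower, the last with all genes split 4094 higher and 6317 lower in place of 5526 and 4937. For day 6 against day 0 it called 2 higher and 13 lower (32% and 31.9% of all genes). At day 6 the called interactions with a well-counted gene included Hist3h2a (log2 -1.90 ± 0.37, adjusted p = 2.83e-05), which rose by 0.96 ± 0.28 in Oct1 cKO cells and by 2.86 ± 0.18 in parental cells. Hist1h2bg was not well counted, with 16 counts at day 0 and 5 at day 6 over the Oct1 cKO libraries and 25 and 85 over the parental ones. It had an interaction of -3.37 ± 0.76 (adjusted p = 0.000178), where it fell by 1.85 ± 0.68 in Oct1 cKO cells and rose by 1.52 ± 0.33 in parental cells. Without library 3 of Oct1 cKO day 0 the Oct1 cKO fall of Hist1h2bg was 1.37 and not called (adjusted p = 0.126).

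The genes were also described by the length of their annotated 3′ ends. A stem-loop sequence was found after the coding sequence in 40 of the 57 genes and not in 17. The commonest form, in 21 genes including Hist1h1c, Hist1h2bg, Hist3h2a and Hist3h2ba, and the next, in 7 H4 genes, are shown because they mark where these transcripts usually end.
Hist3h2ba stem-loop (chromosome 11, plus strand, GRCm38): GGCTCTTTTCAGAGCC
Hist1h4d stem-loop (chromosome 13, plus strand, GRCm38): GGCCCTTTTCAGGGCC
In 19 genes the annotated transcript that reaches farthest ends under 100 bases after the stem-loop, and in 21 it runs 100 bases or more past it. In Oct1 cKO cells at day 6 against day 0, the 19 gave 10 lower calls and none higher, and the 21 gave 3 higher and 6 lower. Of all genes tested in this contrast, 41.4% were called higher and 40.4% lower in Oct1 cKO cells, and 45.3% and 40.2% in parental cells. Untested genes of a set count here as not called. In parental cells 10 of the 19 were called lower and none higher, and the group mean was lower in 18, beside 48.7% of all genes. Among the 21, 10 were called higher and 3 lower, and the mean was higher in 12, beside 50.8% of all genes. The 17 without a match gave 2 higher and 3 lower in Oct1 cKO cells and 2 higher and 2 lower in parental cells. Summed levels of the 21 were 22.8, 73.6 and 31.3 CPM at days 0, 2 and 6 in Oct1 cKO cells and 31.8, 86.1 and 77.8 CPM in parental cells. Those of the 19 were 6.59, 16.9 and 2.28 CPM in Oct1 cKO cells and 10.8, 25.1 and 4.67 CPM in parental cells. The sum of the 19 was below its day 0 value at day 6 in both genotypes, and the sum of the 21 stood above it in both. In Oct1 cKO cells this rise of the 21 rested on Hist1h1c, which is among them. It averaged 10.3 CPM at day 0 and 22.3 CPM at day 6 there, a larger rise than that of the whole sum. In parental cells it averaged 14.4 and 41.9 CPM, a smaller rise than that of the sum. The limit of 100 bases was set after the values were seen, so these counts are a description. RNA selection is not stated, and transcripts with and without a poly(A) tail cannot be told apart.

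**Figure D4:**
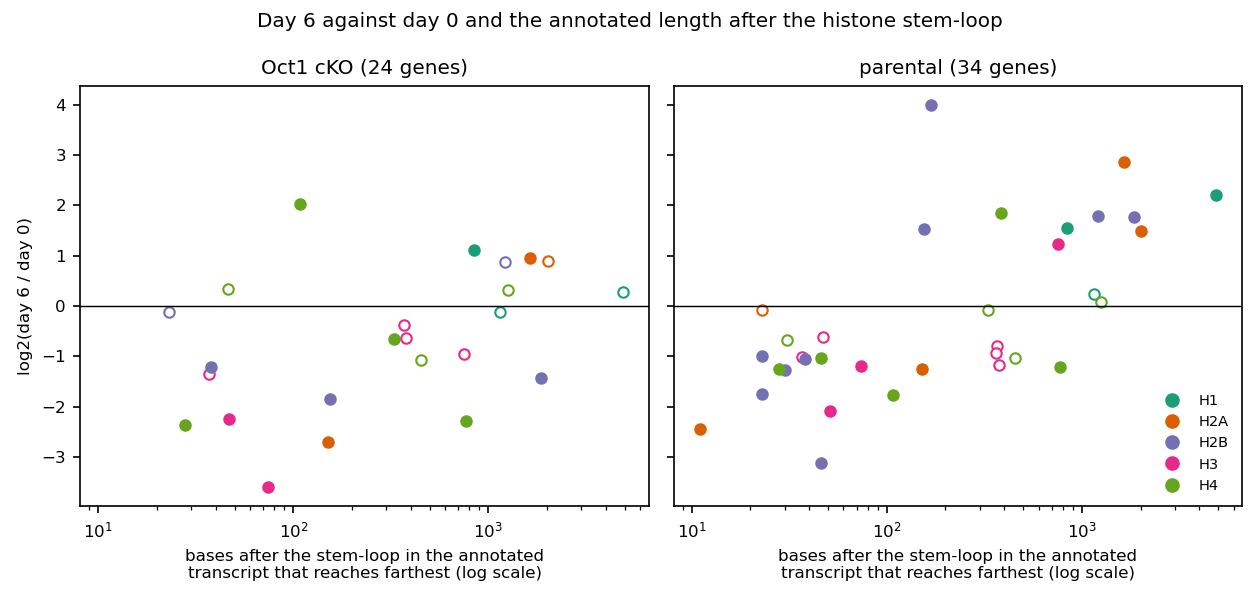
Log2 ratio of day 6 to day 0 (vertical axis) against the bases after the stem-loop in the annotated transcript that reaches farthest (horizontal log axis), for genes that passed the filter, have a stem-loop match and hold over 3 counts in both groups; colours mark the class and filled points are called. Oct1 cKO cells (24 genes, left) have 3 called genes above 0, and parental cells (34 genes, right) have 10, none of them under 100 bases.

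Genes that transcribe and process histone RNA went both ways between genotypes. Of 20 such genes listed, 19 were tested, and in Oct1 cKO cells 4 were called higher and 13 lower at day 0, 9 and 4 at day 2, and 10 and 4 at day 6. The lower calls of each day include Pou2f1, the gene that the genotype label names, so that call says nothing about the rest of the list. Of all genes tested 26.4% were higher and 27% lower at day 0, 33.7% and 33.6% at day 2, and 36.7% and 37.8% at day 6, which is also the background of the lists that follow. Slbp, which binds the stem-loop, averaged 115 CPM in Oct1 cKO cells and 142 CPM in parental cells at day 0, and 81.7 and 71.2 CPM at day 6. Npat, the histone gene coactivator, averaged 80.8 and 97.2 CPM at day 0 and 117 and 84.9 CPM at day 6. Both were called lower at day 0 and higher at day 6. Lsm11, a subunit of the U7 particle that cuts histone pre-mRNA, was lower at day 0 (log2 -0.99 ± 0.10, adjusted p = 3.06e-11) and day 6 (log2 -0.998 ± 0.07, adjusted p = 1.74e-15). Hinfp, an activator of H4 promoters, was higher at day 6 (log2 1.12 ± 0.06, adjusted p = 7.82e-19), as was Zfp473, a zinc finger protein of the U7 processing complex (log2 2.0 ± 0.07, adjusted p = 9.28e-25). E2f1, a transcription factor of S phase entry, was lower at day 0 (log2 -0.48 ± 0.06). Ccne2, a cyclin E gene, was lower at day 0 (log2 -0.83 ± 0.07) and higher at day 6 (log2 1.16 ± 0.07), while Ccne1 was lower at day 2 (log2 -0.63 ± 0.05) and Cdk2 higher (log2 0.69 ± 0.05).

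Genes of DNA synthesis and the cycle were more often higher than lower in Oct1 cKO cells at days 0 and 2. Of 24 listed, 13 were higher and 3 lower in Oct1 cKO cells at day 0, 14 and 5 at day 2, and 8 and 11 at day 6, the last near the shares of all genes. The list also holds inhibitors of the cycle, so a higher call does not always mark a gene that drives it. At day 2 Cdkn1a averaged 131 CPM in Oct1 cKO cells against 82.7 CPM in parental cells, Cdkn1b 82.8 against 32.2 CPM and Cdkn1c 25.2 against 28.9 CPM. At day 2, when the sum over all 57 histone genes was highest, 18 of the 24 were lower than at day 0 and 5 higher in Oct1 cKO cells, and 19 were lower and 3 higher in parental cells. Of all genes tested, 35.5% were lower and 41% higher between these days in Oct1 cKO cells, and 37.7% and 43.2% in parental cells. Cdc6, a replication licensing factor, was lower in Oct1 cKO cells at day 0 (log2 -0.74 ± 0.05) and day 2 (log2 -0.69 ± 0.05). At day 0 Top2a also averaged lower (1039 against 1333 CPM), while Pola1 (169 against 121 CPM) and Mcm5 (653 against 510 CPM) averaged higher. Mcm2, a helicase subunit, was higher at day 2 (log2 0.62 ± 0.04), and Pola1, a polymerase subunit, was lower at day 6 (log2 -1.06 ± 0.06). Cdkn1c, an inhibitor of cyclin-dependent kinases, averaged 284 CPM in Oct1 cKO cells at day 6 and 59.1 CPM in parental cells (log2 2.26 ± 0.06).

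Histone genes outside these clusters, whose transcripts do not depend on replication, gave 5 higher and 3 lower of 11 tested at day 0, 3 and 5 at day 2, and 2 and 8 at day 6. H1f0, a linker histone of resting cells, averaged 82.1 CPM in Oct1 cKO cells at day 2 and 195 CPM in parental cells, and averaged 251 and 253 CPM at day 6 (log2 -0.01 ± 0.04, adjusted p = 0.896). H3f3b, which encodes replacement H3, averaged 438 and 1264 CPM at day 6 (log2 -1.53 ± 0.05). H1fx, a further linker histone, averaged 4.65 and 30.4 CPM at day 6 (log2 -2.70 ± 0.11). H2afy2, a macroH2A gene, averaged 11.8 and 96.5 CPM at that day (log2 -3.03 ± 0.07). Cenpa, the centromeric H3, was higher at day 2, at 379 against 194 CPM, and H2afz, a variant of H2A, was higher at day 0, at 622 against 457 CPM. Of 16 histone chaperones, 5 were higher and 2 lower at day 0, 6 and 4 at day 2, and 6 and 6 at day 6. Chaf1a, a subunit of the assembly factor that follows the replication fork, was lower at day 2 (log2 -0.68 ± 0.05), and Hat1, which acetylates new H4, was higher at day 6 (log2 1.42 ± 0.05).

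Markers of cell identity differed between the same groups. The summed level of 6 ESC markers was 4571 to 4899 CPM in Oct1 cKO cells against 3819 to 3891 CPM in parental cells at day 0, and 124 to 130 against 36.4 to 41.1 CPM at day 6. The 8 fibroblast markers, which would also mark feeder cells, summed to 354 to 368 against 1161 to 1227 CPM at day 0, 103 to 131 against 183 to 199 CPM at day 2, and 477 to 575 against 4001 to 4299 CPM at day 6. Of these 8, 7 were called lower in Oct1 cKO cells at day 0, 4 at day 2 and 6 at day 6. No marker list went one way throughout. Among the ESC markers, Pou5f1 averaged 1517 CPM in Oct1 cKO cells against 893 CPM in parental cells at day 0, but Sox2 442 against 456 CPM. Nanog averaged 0.342 against 1.34 CPM at day 6. Of the fibroblast markers, Postn averaged 57.5 against 49.6 CPM at day 6. The 4 neuron markers summed to 387 to 451 CPM in Oct1 cKO cells against 340 to 348 CPM in parental cells at day 0, 124 to 133 against 39.9 to 43.9 CPM at day 2, and 25.8 to 33.1 against 208 to 214 CPM at day 6, where 3 were lower and Tubb3 higher (25.2 against 9.35 CPM). The 4 mesoderm markers summed to 104 to 122 against 235 to 264 CPM at day 6, where Kdr had 12.9 against 226 CPM but Hand1 93.1 against 17.7 CPM. The 5 endoderm markers summed to 335 to 360 against 424 to 456 CPM at day 6, where Gata6 had 68.0 against 304 CPM while Gata4 (195 against 88.1 CPM), Sox17 (43.8 against 10.5 CPM) and Sox7 (35.9 against 24.1 CPM) were higher. No marker was at 0 counts over a whole group. The part of these differences in the histone results was not tested.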

How the data were processed

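RNA-seq covered 18 libraries of mouse ESCs, 3 for each genotype and day. The authors deposited raw counts per gene, whole and not normalized, with 13694126 to 19296966 counts per library. Per the submitters' processing notes, Novoalign, the builds mm10 and GRCm38 and DESeq2 1.10.0 were used, with no role given; no source used here gives the counter, the strand setting, the RNA selection or the handling of reads that match several genes. Columns were matched to libraries by title, and replicate numbers only name libraries.

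All 18 libraries entered 1 fit of edgeR 4.0.16 (R 4.3.3) with a coefficient per group: TMM factors, filterByExpr with a minimum count of 10 and a minimum total of 15, and the quasi-likelihood test, with Benjamini-Hochberg adjusted p under 0.05 over 18352 genes as a call. The script was tested on simulated data. CPM uses TMM-scaled sizes, and sums run over every member whether or not it passed the filter. A gene at 0 was set to a floor of 3 counts per library, and 1 to 3 counts give a ratio with an exact 95% interval; both cover counting error only. Alternatives were DESeq2 1.42.0, DESeq2 size factors, library sizes, no filter, a 2-fold minimum, only the groups compared, each library left out, and class sums without their leading or chromosome 11 gene.

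Positions came from GENCODE M21, promoters from RefSeq GRCm38.p6. Named genes were the 3 of each class with the highest mean CPM, every H2B gene tested, the 2 largest rises and falls per genotype comparison among called genes with a mean of at least 1 CPM, and up to 4 of each other list with the smallest adjusted p. Members, lists and this rule were chosen with earlier results of these data known.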

Additional observations from a re-analysis of the deposited data

Results flagged for a closer look

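The genotype by day interaction was called for 12 of the genes named above, 1 of them at both days, which is to say that the change from day 0 differed between Oct1 cKO and parental cells (edgeR's quasi-likelihood test). Values are log2, Oct1 cKO change minus parental change. At day 2 it was 0.736 for Hist1h1c, 0.664 for Hist1h2bc and 2.02 for Hist2h3c2. The call of Hist2h3c2 was lost without library 3 of parental day 0 (adjusted p = 0.0675). At day 6 it was -0.433 for Hist1h1c, -1.92 for Hist1h1d, -1.9 for Hist3h2a, -2.63 for Hist2h2be and -0.571 for Hist1h4i. It was -2.4 for Hist1h3c, -2.18 for Hist1h3d, -3.18 for Hist1h2be and -3.37 for Hist1h2bg. For Hist3h2ba it was -6.21, a fitted value that depends on the prior count, since Oct1 cKO cells had 2 counts at day 6. Without library 3 of Oct1 cKO day 0 the calls of Hist1h1d (-0.81, adjusted p = 0.404) and Hist2h2be (-1.58, adjusted p = 0.0777) were lost.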

How the results depend on the processing

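No paired analysis was possible because the labels give no replicate numbers. Counts are of histone genes called, sums are log2 ratios of Oct1 cKO to parental. DESeq2 size factors gave 1 lower call for the day 2 interaction and H1 sums of -0.0095 at day 2 and -0.97 at day 6. Library sizes alone moved the median of all genes by -0.19 in the genotype comparisons of days 2 and 6 and by 0.34 between days 2 and 0 in parental cells. They gave 1 lower call for the day 2 and 1 higher for the day 6 interaction. The sums were then -0.16 (H1), -0.56 (H2A), -0.49 (H2B), -0.33 (H3) and -0.56 (H4) at day 2, and -1.24, -2.39, -1.79, -2.02 and -0.87 in that order at day 6. Day 2 against day 0 in parental cells turned to 0.24 for Hist1h1c and 0.017 for Pou2f1. With no filter, 1 gene was lower at day 2 against day 0 in Oct1 cKO cells and 1 in the day 2 interaction. With a 2-fold minimum, 1 gene was higher and 13 lower at day 2, 1 higher in the day 2 interaction, and for day 6 against day 2 there was 1 higher in Oct1 cKO and 2 in parental cells. In a fit of only the groups compared, 7 were lower at day 0, 0 higher and 14 lower at day 6. For day 6 against day 0 that fit gave 3 higher and 4 lower in Oct1 cKO and 8 lower in parental cells, and for day 6 against day 2 in Oct1 cKO 1 higher and 18 lower. DESeq2 gave 1 higher for the day 6 interaction. Without each class's leading gene the sums were -0.91 (H1) and -0.69 (H4) at day 0, -0.87 (H1), -0.69 (H2A), -0.44 (H2B) and -0.91 (H4) at day 2, and -2.55, -1.96, -2.84, -1.65 and -0.44 for H1 to H4 in order at day 6. Without the chromosome 11 gene, an alternative chosen after seeing the data, as were the day 6 against day 2 comparisons, they were -0.69 (H2A) and -0.13 (H2B) at day 2, and -1.96 and -1.31 at day 6. Also chosen after seeing the data, the day 6 sum of H2B genes without an octamer was -1.72 without Hist3h2ba, and the H1 ratio of day 6 to day 2 without Hist1h1c was -1.53 in Oct1 cKO cells, where it turned, and 0.16 in parental cells. Leaving out 1 library gave 5 to 12 lower at day 0, 1 to 2 higher at day 6, 0 to 1 lower at day 2 against day 0 in Oct1 cKO cells, 0 to 1 lower in the day 2 and 1 to 3 higher in the day 6 interaction, and an H1 sum of -0.11 to 0.13 at day 2, negative without library 1 of Oct1 cKO day 2 (-0.11) or library 3 of parental day 2 (-0.04). The cause of these shifts was not tested beyond what each setting leaves out. Of the values for single genes, leaving out 1 library lost 121 calls and gained 33 over all libraries and comparisons. Depth limits most single genes, since 50 of 57 averaged under 30 counts per library.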
